A study of Mus musculus with 9 samples.

Results

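The cytosolic ribosomal protein genes were taken as the genes whose symbol starts with Rpl or Rps and a digit, or is Rplp0, Rplp1, Rplp2 or Rpsa, without the ribosomal S6 kinases and without symbols holding -ps, which marks pseudogenes. A mean value of at least 10 over the libraries was also required. Of 18275 genes in the deposited table, 139 had such a symbol, 50 of these were left out for -ps, 2 had a lower mean, and 87 were kept. By their names, 77 of the 87 were main genes of the ribosome, 31 for the small and 46 for the large subunit. Another 8 were copies or paralogs of main genes, namely Rps4l, Rps27l, Rps27rt, Rps3a2, Rpl6l, Rpl22l1, Rpl36al and Rpl37rt. The last 2, the Rps19-binding protein gene Rps19bp1 and the Rpl7-like gene Rpl7l1, match the names without being counted among the main proteins of the ribosome.

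RNA was sequenced from the hippocampus of 9 adult male mice, with 1 library per animal. The 4 Nestin;BrafKE/+ mice (genotype label K499E) carried 1 Cre-dependent mutant Braf allele and a Nestin-Cre transgene, which is active in neural stem cells, so that their later neurons and glia carry the recombined allele, and the 5 Braf+/+ mice (genotype label WT) were littermate controls. All had the strain label C57BL/6N, and whether the controls carried the Cre transgene is not given in the sources used here. From the prefixes of their names, whose meaning is not given in the sources used here, the libraries were put into 3 series, with 2 similar prefixes joined in the first, called A (mutant replicate 1 with control replicates 1, 2 and 3), B (mutant replicates 2 and 3 with control replicate 4) and C (mutant replicate 4 with control replicate 5). Values are the authors' normalised signal. The authors adjusted for batches in their differential tests, and the paper does not state whether the deposited values carry that adjustment. Library totals ran from 19551312 to 20091532, mitochondrially encoded genes took 6.55% to 7.01% of them, and the 10 most abundant genes took 7.37% to 8.91%. Both shares include mt-Co1, which was almost fixed, at 491050 ± 2145 in the mutant libraries (SD, n = 4) and 491395 ± 2114 in the controls (SD, n = 5). The narrow ranges are therefore no measure of library quality. The mutant locus itself was read first. Braf had 2264 ± 144 in the mutant libraries (SD, n = 4) and 2786 ± 153 in the controls (SD, n = 5), with all mutant libraries below all controls (adjusted p = 0.0378). A gene's total does not tell the mutant from the normal allele. The summed signal of 8 marker genes of the labelled tissue, hippocampus, was 41942 to 46362 per library. The largest part came from Slc17a7 (mean 20838), which is also a marker of neurons in general. This sum alone therefore does not tell hippocampus from other brain tissue.

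The ribosome joins amino acids into protein, and each of its subunits is built from ribosomal RNA and a fixed set of proteins. The genes for these proteins are among the most strongly transcribed in any cell, and most of their products are needed in equal numbers. Their transcripts typically begin with a 5′ terminal oligopyrimidine (TOP) tract, an unbroken run of C and U through which mTOR signalling sets how strongly they are translated. In the brain, ribosomes lie in cell bodies and also in dendrites and astrocyte processes, where proteins for synapses are made locally. RAS/ERK and mTOR signalling both reach the ribosome through kinases that phosphorylate the small subunit protein Rps6.

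Near their annotated starts, most of the main genes searched carry a run of pyrimidines in their DNA. Such a run need not begin the transcript, so its count is not a count of TOP tracts. RefSeq gene starts (GRCm38.p6) were given for 64 of the 87 genes, and 250 bases before to 50 bases after each start were read. A run of at least 8 C or T on the gene's strand, within 50 bases of the start, was found in 48 of 57 main genes (84.2%) and in 4482 of 11984 tested genes with an entry (37.4%). The windows below show the longest run in capitals for genes that the results turn on, with chromosome coordinates of GRCm38.p6 and 5′ to 3′ on the gene's strand. Rpl28, Rpl38 and Rps6 are shown because the run spans the annotated start. Rpl37 is shown as the main gene with the highest fold change and Rpl4 as that with the lowest, Rps27 beside its paralog and its single-exon copy, and Rpl22l1 as a paralog.
Rpl28, chr7:4792952-4792981, plus strand: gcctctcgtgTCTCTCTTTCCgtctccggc
Rpl38, chr11:114668568-114668597, plus strand: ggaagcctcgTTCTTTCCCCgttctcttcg
Rps6, chr4:86857349-86857378, minus strand: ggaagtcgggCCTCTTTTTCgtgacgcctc
Rpl37, chr15:5116631-5116660, plus strand: ggcgggggtgCTTTCTCTTCCggtctcttt
Rpl4, chr9:64173403-64173432, plus strand: aggagcgtggCCTTCTCCTCTCCCCgtcat
Rps27, chr3:90213631-90213660, minus strand: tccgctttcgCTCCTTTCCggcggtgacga
Rps27l, chr9:66946054-66946083, plus strand: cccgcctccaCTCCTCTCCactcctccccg
Rps27rt, chr9:114982754-114982783, minus strand: tctccaaaagTTCTTCTgtgctttggttaa
Rpl22l1, chr3:28805499-28805528, plus strand: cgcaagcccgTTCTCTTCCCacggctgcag

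With the annotated start counted as 0, the run lay from -3 to 7 in Rpl28, from -2 to 7 in Rpl38 and from -1 to 8 in Rps6. In Rpl37 and Rpl4 it lay further inside, from 28 to 38 and from 26 to 40. The longest run of Rps27 and of its paralog Rps27l was 9 bases, and that of the copy Rps27rt was 7, under the minimum. A second motif, the letters CGGAAG found in binding motifs of ETS transcription factors, was searched on both strands of the whole window and found in 40 of 57 main genes (70.2%), against 31.7% of the tested genes with an entry. On the opposite strand this motif reads CTTCCG, most of which can lie inside a run of pyrimidines, so both motifs can overlap. The median log2 fold change between genotypes, described next, was 0.09 for the 48 main genes with the run and 0.05 for the rest of the 57. It was 0.10 for the 40 with CGGAAG and 0.05 for the rest. Over all tested genes with an entry it was 0.0057 with the run and 0.0014 without, and 0.0051 with CGGAAG and 0.0017 without. None of these differences was tested. These are descriptions of the letters present, and no binding or translation was measured.

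The 87 genes together took a slightly larger share of the signal in Nestin;BrafKE/+ than in Braf+/+. Their summed signal was 1.267%, 1.265%, 1.350% and 1.280% of the library total in Nestin;BrafKE/+ replicates 1 to 4. It was 1.151%, 1.230%, 1.300%, 1.187% and 1.237% in Braf+/+ replicates 1 to 5. Nestin;BrafKE/+ replicate 3 was the highest of all libraries and Braf+/+ replicate 1 the lowest. The groups overlapped, because Braf+/+ replicate 3 lay above 3 of the 4 mutant libraries. The group means were 1.29% ± 0.040 (SD, n = 4) and 1.22% ± 0.056 (SD, n = 5), a difference of 0.0694 percentage points or 1.06-fold. Within series A, B and C the difference was 0.040, 0.120 and 0.043 percentage points. In whole tissue, fewer cells of a type and less RNA per cell cannot be told apart.

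**Figure D1:**
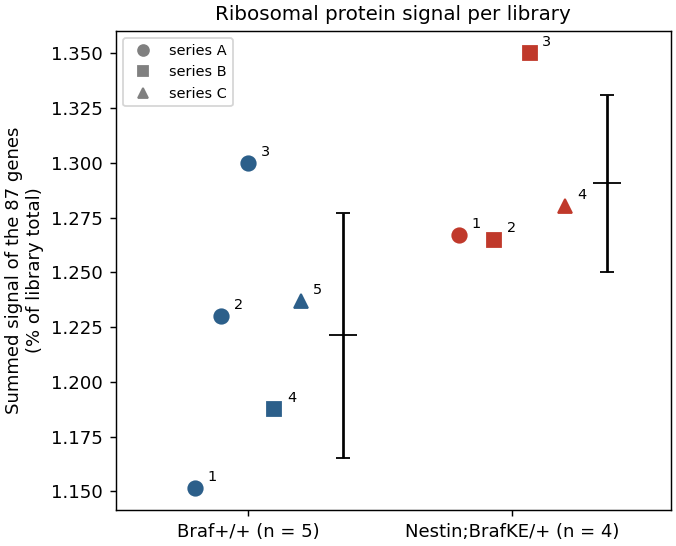
Summed signal of the 87 ribosomal protein genes as a percentage of the library total (y axis, not from 0) for each of the 9 libraries, numbered by replicate, with the marker shape giving the series and the bars the mean ± SD of each group. The 4 Nestin;BrafKE/+ libraries sit between 1.265% and 1.350%, and Braf+/+ spans 1.151% to 1.300%, so the groups overlap.

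No ribosomal protein gene passed the test with series as a term. Of 16196 genes tested with limma, 2.88% had an adjusted p under 0.05 (1.52% higher and 1.36% lower in Nestin;BrafKE/+), and of the 87 genes 0 did, in either direction. Without the series term 12 of the 87 passed, all higher, as did 2260 of all genes. The lowest adjusted p among the 87 was 0.0926, for Rps4l, followed by 0.0962 for Rpl28. An unadjusted p under 0.05 with a higher value in Nestin;BrafKE/+ was found for 21 of the 87 (24.1%), against 8.86% of all genes tested, and with a lower value for 1 (1.15%), against 9.61%. Of the 87 genes, 74 (85.1%) had a positive log2 fold change, against 50.1% of all genes. The values of both groups did not overlap, with Nestin;BrafKE/+ higher, for 15 of the 87 (17.2%), against 7.62% of all genes, and with it lower for 1 (1.15%), against 8.13%. The median log2 fold change was 0.09 for the 87 genes and 0.0003 for all genes tested. The 95% interval reached a median of 0.14 to either side for the 87, so a shift of the size of their median lies within the interval of a typical single gene.

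The count of 21 depended on which libraries and series entered the comparison. The share of all genes at the same unadjusted cutoff is not given for these fits. Whether the count fell more for these genes than for others was not tested. The count for the 87 genes was 3 without Braf+/+ replicate 4, the only control of series B. Mutant replicates 2 and 3 then have no control in their series and add nothing to the comparison. The count was 11 without Nestin;BrafKE/+ replicate 3. It was 9 with the 4 name prefixes in place of the 3 series, where Braf+/+ replicates 1 and 2 have no mutant beside them. With both the highest and the lowest library (Nestin;BrafKE/+ replicate 3 and Braf+/+ replicate 1) left out, a choice made after seeing the data, it was 5, the median log2 fold change was 0.05 and 64 of the 87 genes were above 0. Over all genes, the number past the threshold was 466. It was 42 without Nestin;BrafKE/+ replicate 1, the only mutant of series A, whose 3 controls then add nothing to the comparison. It was 97 without Braf+/+ replicate 4, 169 without Nestin;BrafKE/+ replicate 3 and 278 without Braf+/+ replicate 1. With the 4 name prefixes it was 165, and without both Nestin;BrafKE/+ replicate 3 and Braf+/+ replicate 1 it was 70.

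Main genes of both subunits lay in the same narrow range. The median log2 fold change was 0.09 for the 31 small subunit genes, of which 29 were above 0, and 0.09 for the 46 large subunit genes, of which 41 were above 0. Over all 77 main genes it ran from -0.03 in Rpl4 to 0.29 in Rpl37, and 0 of the 77 had an unadjusted p under 0.05 in the lower direction. The 8 copies and paralogs spread further, from -0.52 in Rps3a2 to 0.34 in Rps4l, with a median of -0.13 and 3 above 0. Their median standard error was 0.19, against 0.06 for the main genes.

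**Figure D2:**
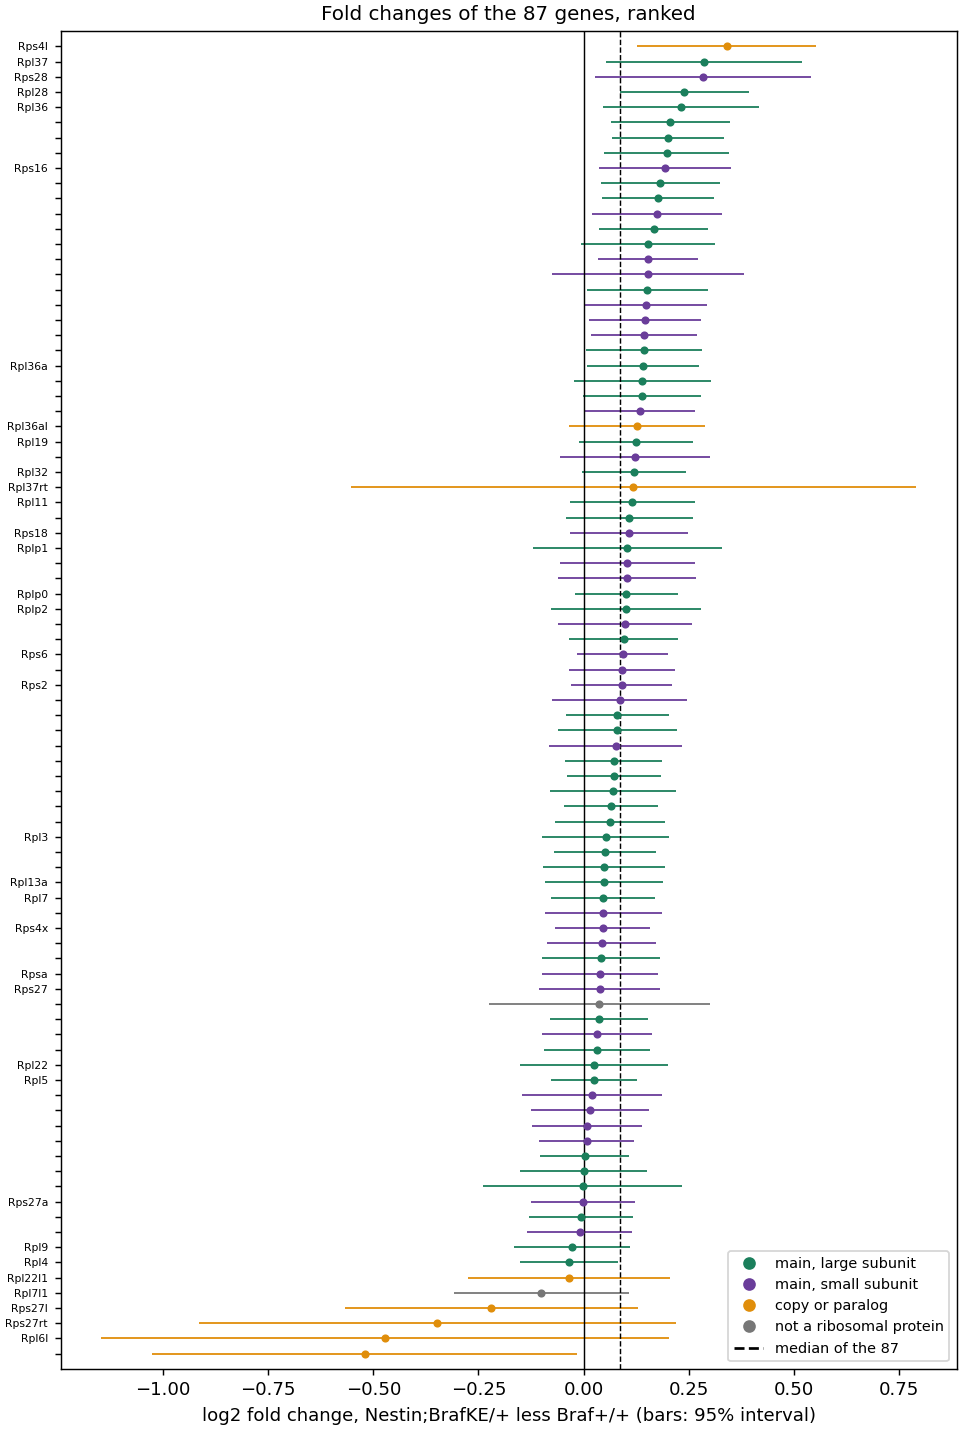
Log2 fold change of Nestin;BrafKE/+ against Braf+/+ for the 87 genes (x axis, points with 95% intervals from limma), ranked on the y axis, labelled for the genes named by rule and coloured by subunit and class, with the median of the 87 as a broken line. Main genes crowd between -0.03 and 0.29, and copies and paralogs stand at both ends.

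The highest fold change among the 87 genes was that of a paralog. Rps4l (chromosome 6, 148256098 to 148257431 in GRCm39), a single-exon relative of the small subunit gene Rps4x, had a signal of 447, 480, 476 and 435 in Nestin;BrafKE/+ replicates 1 to 4. In Braf+/+ replicates 1 to 5 it had 319.9, 387, 393, 334 and 383. All mutant libraries lay above all controls. The log2 fold change was 0.34 (adjusted p = 0.0926, SE 0.10), and within series A, B and C it was 0.29, 0.51 and 0.18. Rps4x itself, on chromosome X, had 3944 ± 125 (SD, n = 4) and 3822 ± 145 (SD, n = 5), a difference of 0.05 on the log2 scale (adjusted p = 0.684, SE 0.05).

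Rpl28 (chromosome 7, 4795873 to 4799713 in GRCm39), a large subunit protein, had 2111, 2378, 2279 and 2226 in Nestin;BrafKE/+ replicates 1 to 4 and 1765, 2016, 2055, 1773 and 1922 in Braf+/+ replicates 1 to 5. The groups did not overlap, though Nestin;BrafKE/+ replicate 1 and Braf+/+ replicate 3 lay close together. Its log2 fold change was 0.24 (adjusted p = 0.0962, SE 0.07), with 0.12, 0.39 and 0.21 in series A, B and C.

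Rpl37 (chromosome 15, 5145959 to 5153877), a large subunit protein that binds zinc, had 2511, 2899.8, 3089.9 and 2588 in the mutant libraries and 2053, 2356, 2638, 1931 and 2419 in the controls. Mutant replicates 2 and 3, both of series B, were the highest libraries and Braf+/+ replicate 4, the control of that series, the lowest. The groups overlapped through Braf+/+ replicate 3. The log2 fold change was 0.29 (adjusted p = 0.178, SE 0.11), and it was 0.63 within series B but 0.10 within A and within C.

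Rps28 (chromosome 17, 34034199 to 34043536), a small subunit protein, showed the same order of series. It had 968, 1053, 1065 and 897 in the mutant libraries and 674, 894, 923, 718 and 904 in the controls. Braf+/+ replicates 1 and 4 stood below the rest, and Nestin;BrafKE/+ replicate 4 lay within the range of the other controls. The log2 fold change was 0.28 (adjusted p = 0.224, SE 0.12), and within series A, B and C it was 0.23, 0.56 and -0.01.

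Rpl36 (chromosome 17, 56919155 to 56921505), of the large subunit, had 1019, 1126, 1097 and 1005 in the mutant libraries and 821, 922, 1008.5, 823 and 953 in the controls. Replicate 4 of the mutant and replicate 3 of the controls overlapped by a few units. The log2 fold change was 0.23 (adjusted p = 0.171, SE 0.08), and within series A, B and C it was 0.16, 0.43 and 0.08. Leaving out Braf+/+ replicate 4 takes all of series B out of the comparison. The log2 fold change of all 5 genes just described was then lower. It was 0.25 for Rps4l, 0.16 for Rpl28, 0.10 for Rpl37, 0.14 for Rps28 and 0.12 for Rpl36.

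Besides Rps4l and Rpl28, genes whose groups did not overlap included Rpl10a, Rpl18, Rpl23, Rpl31, Rpl32, Rpl36a, Rpl41, Rps12, Rps16 and Rps20, all higher in Nestin;BrafKE/+. Their log2 fold changes ran from 0.12 in Rpl32 to 0.21 in Rpl41. Most of these genes entered the text only for this pattern, after their values were seen. Rpl41, which encodes the shortest protein of the ribosome, had 3518, 3258.5, 3547 and 3324 in the mutant libraries and 2644, 2987.5, 3162, 2975 and 3034 in the controls (adjusted p = 0.121).

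Among small subunit genes, Rps6, the target of the S6 kinases, had 4832, 4928, 5051 and 4935 in Nestin;BrafKE/+ and 4409.6, 4924, 4653, 4532.5 and 4631 in Braf+/+. Only Braf+/+ replicate 2 reached into the mutant range. The log2 fold change was 0.09 (adjusted p = 0.352, SE 0.05), and an exact permutation test, two-sided, gave p = 0.0238 over all libraries but 0.125 within series. Rpsa, which is both a ribosomal protein and a laminin receptor, had 6766 ± 273 (SD, n = 4) and 6593 ± 448 (SD, n = 5), a difference of 0.04 on the log2 scale (adjusted p = 0.787). Rps2, which lies at the mRNA entry of the small subunit, had 6157 ± 279 (SD, n = 4) and 5783 ± 257 (SD, n = 5), a difference of 0.09 on the log2 scale (adjusted p = 0.42). Rps27a, made as a fusion to ubiquitin, lay nearest to no difference among the small subunit genes, with 2529.7 ± 76.0 (SD, n = 4) and 2534 ± 124 (SD, n = 5), a log2 fold change of -0.002 and a 95% interval from -0.13 to 0.12.

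Rpl3 and Rpl4 were the most abundant large subunit genes. Rpl3, which lies near the catalytic centre, had the highest mean signal of the 87 genes, with 9957, 9183, 11413 and 10623.5 in the mutant libraries and 9528, 10378, 10074, 9946 and 9563 in the controls. The mutant libraries held both the highest and the lowest value, and the log2 fold change was 0.05 (adjusted p = 0.728, SE 0.07). Rpl4, a protein of the exit tunnel, had 8083, 7680.3, 8449 and 8383 against 7879, 8709, 8496, 8528 and 8106, with a difference of -0.03 on the log2 scale (adjusted p = 0.774, SE 0.05). Rpl9, the other main gene among the lowest fold changes named by rule, was also at -0.03 (adjusted p = 0.852, SE 0.06).

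The 3 stalk proteins, which recruit elongation factors to the large subunit, had log2 fold changes of 0.10 each. Without Braf+/+ replicate 4, the only control of series B, the mutant libraries of that series add nothing to the comparison. In that fit Rplp1 was -0.055 and Rplp2 -0.011, so the sign of both rested on series B. When any 1 library was left out, Rplp0 ran from 0.028 to 0.14. Rplp1 varied most between libraries, from 5435 in Nestin;BrafKE/+ replicate 1 to 6494 in replicate 3, and from 4909 in Braf+/+ replicate 4 to 6902 in replicate 3. The highest value of all was thus in a control, and the adjusted p was 0.633. Rplp0 had 4375 ± 164 (SD, n = 4) and 4078 ± 197 (SD, n = 5), with an adjusted p of 0.366. Rpl5 and Rpl11, which join the ribosome with the 5S RNA and bind Mdm2 when they are free, had log2 fold changes of 0.02 (adjusted p = 0.821) and 0.12 (adjusted p = 0.403).

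Transcripts often used as loading references were among these genes. All 6 of Rplp0, Rpl13a, Rps18, Rpl19, Rps16 and Rpl32 had a log2 fold change above 0, with a median of 0.11, from 0.05 in Rpl13a to 0.19 in Rps16. None of the 6 passed the threshold in limma, and 1, Rps16, had an unadjusted p under 0.05. Rps16 had 2525, 2528, 2773 and 2461 in the mutant libraries and 2031, 2350.4, 2415, 2117 and 2348 in the controls, with no overlap (adjusted p = 0.178, SE 0.07). Of 20 genes mutated in Diamond-Blackfan anaemia, an inherited failure of red cell production, 18 were above 0 with a median of 0.09, 0 passed the threshold and 4 had an unadjusted p under 0.05, all higher.

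Paralogs were compared with their main genes by signal per kilobase of coding sequence, which takes no account of untranslated ends. The main genes had a median of 5582 per kilobase, from 2751 in Rps19 to 22906 in Rpl41, an 8.33-fold range. Rps27l had 632 against 4794 for Rps27, Rpl22l1 had 1667 against 4637 for Rpl22, Rpl36al had 2711 against 4306 for Rpl36a, and Rps4l had 517 against 4913 for Rps4x. In all 4 pairs the main gene was the more abundant. Rpl7l1 had 1027 against 5425 for Rpl7.

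Fold changes within a pair were not always of one sign. Rps27l, a relative of Rps27 that p53 is known to induce, had 179.7, 122, 142 and 141 in the mutant libraries and 143, 157, 172, 203 and 174 in the controls. Mutant replicate 1 lay above 4 of the 5 controls, and the other mutant libraries lay below all of them. The log2 fold change was -0.22 (adjusted p = 0.499, SE 0.16), and within series A, B and C it was 0.19, -0.62 and -0.31. Rps27 had a difference of 0.04 on the log2 scale (adjusted p = 0.803, SE 0.07). Rpl22l1, which can replace Rpl22 in the ribosome, had 618, 559, 545 and 663 against 634, 532, 642, 707 and 546, and the groups overlapped fully (log2 fold change -0.03, adjusted p = 0.902, SE 0.11). Rpl22 had a difference of 0.02 on the log2 scale (adjusted p = 0.904, SE 0.08). Rpl36a and Rpl36al had 0.14 (adjusted p = 0.247, SE 0.06) and 0.13 (adjusted p = 0.398, SE 0.07), Rpl7 and Rpl7l1 had 0.05 (adjusted p = 0.703, SE 0.06) and -0.10 (adjusted p = 0.616, SE 0.09). Differences between the members of a pair were not tested.

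The genes nearest the lower bound of the mean were copies. Just outside it were Rps3a3, with a mean signal of 3.66, and Rpl3l, the form of Rpl3 known from muscle, with 3.77. Just inside were Rpl6l (22.7), Rps27rt (24.2) and Rpl37rt (27.9). Rps27rt had 20.1, 21.9, 23.0 and 17.9 in Nestin;BrafKE/+ and 33.8, 26.0, 21.9, 22.1 and 31.03 in Braf+/+, and the groups overlapped (log2 fold change -0.35, adjusted p = 0.512, SE 0.26). Much of the sequence of these copies is shared with other genes. Of the 31-base stretches of Rps27rt transcripts, 93.0% also occur in other genes, with Rps27 the closest, and the share was 92.9% for Rps3a2 (closest Rps3a1), 84.4% for Rpl6l (closest Rpl6) and 100% for Rpl37rt, which is listed under a second identifier. The values of such rows depend on how the authors' quantification split shared reads. Among main genes the share reached 91.3% in Rpl9, with a median of 43.6%, and 30 of 77 had at least 50%. Rps4l had 18.2%. The 50 rows left out for -ps summed to a mean signal of 1034, or 0.419% of that of the 87 genes. A gene on the same strand, mostly a small nucleolar RNA, overlapped 35 of the 77 main genes.

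The main genes shifted together from library to library, within groups as well as between them. Each value was set against the gene's mean over the 9 libraries on the log2 scale. The median over the 77 genes was 0.02, 0.03, 0.12 and 0.03 in Nestin;BrafKE/+ replicates 1 to 4, and -0.13, -0.004, 0.04, -0.08 and -0.02 in Braf+/+ replicates 1 to 5. Braf+/+ replicate 1 had the lowest value for 51 of the 77 genes and Braf+/+ replicate 4 for 19. Nestin;BrafKE/+ replicate 3 had the highest value for 49 and Braf+/+ replicate 3 for 14. Within series A, B and C the median difference between genotypes was 0.06, 0.15 and 0.06, with 58, 64 and 69 of the 77 genes above 0, and 42 were above 0 in all 3 series. Series C holds 1 library per genotype, so its differences have no replicate.

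**Figure D3:**
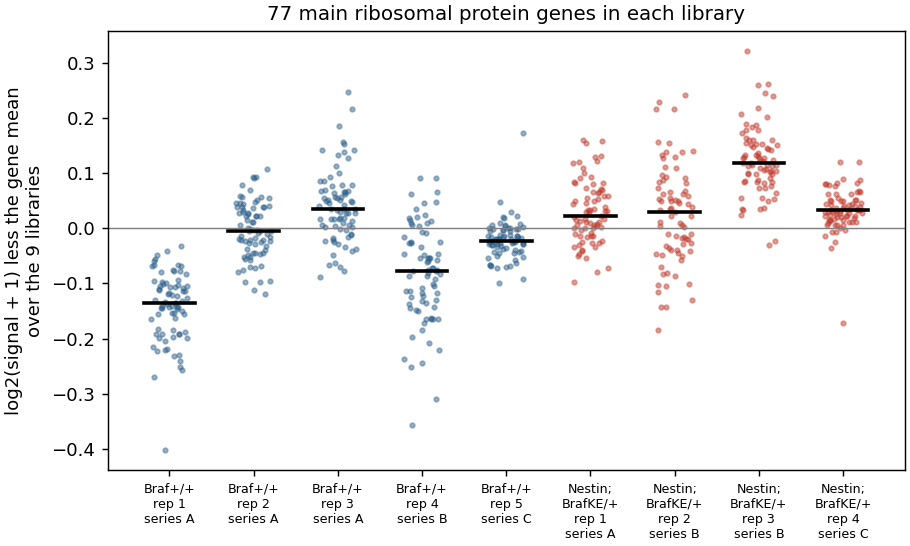
Values of the 77 main genes in each library as log2(signal + 1) less the gene's mean over the 9 libraries (y axis), with 1 point per gene and a bar at the median. The whole set is shifted down in Braf+/+ replicates 1 and 4 (medians -0.13 and -0.08) and up in Nestin;BrafKE/+ replicate 3 (0.12).

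Shorter genes had larger fold changes. Coding lengths of the main genes ran from 138 to 1257 bases with a median of 468, against a median of 1428 for 14305 other protein-coding genes. In the 8 main genes under 300 bases the median log2 fold change was 0.17, and all 8 were above 0. It was 0.10 from 300 to 400 bases (14 genes), 0.11 from 400 to 500 (24), 0.08 from 500 to 600 (8), 0.05 from 600 to 900 (20) and 0.05 from 900 upward (3). Across the 77 genes, Pearson's r between log2 fold change and log2 coding length was -0.489 and Spearman's rho -0.445. These are descriptions across genes, which share libraries and are not independent replicates. The rank correlation was -0.406 for the differences within series A, -0.390 within B and 0.086 within C. Shorter genes were also the less abundant, with a rho of 0.707 between length and mean signal, and rho between mean signal and fold change was -0.366.

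Other genes showed an order of the same direction at a smaller size. The median log2 fold change of other protein-coding genes was 0.07 under 300 bases (233 genes), 0.06 from 300 to 400, 0.04 from 400 to 500, 0.03 from 500 to 600, 0.02 from 600 to 900 and -0.01 from 900 upward (10715 genes). The share above 0 fell from 62.7% in the shortest class to 47.2% in the longest. Spearman's rho across these genes was -0.108. In each class the median of the main ribosomal protein genes was the higher. Neither that difference nor the part of length in the result was tested.

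**Figure D4:**
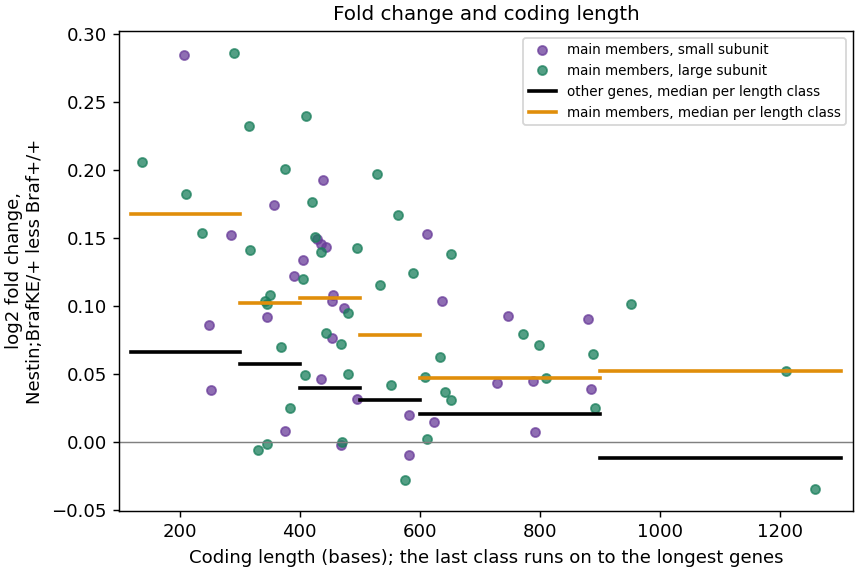
Log2 fold change of Nestin;BrafKE/+ against Braf+/+ (y axis) by coding length in bases (x axis), with a point for each of the 77 main genes and horizontal lines for the median per length class of the main genes and of other protein-coding genes. The line of the main genes runs from 0.17 in the shortest class to 0.05 in the longest, and that of other genes from 0.07 to -0.01.

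Some ribosomal proteins go by other names. Rack1, a scaffold protein on the small subunit, had a difference of 0.14 on the log2 scale (adjusted p = 0.425, SE 0.09), and Fau, which encodes a small subunit protein fused to a ubiquitin-like one, had 0.04 (adjusted p = 0.768, SE 0.07).

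The rest of the translation machinery lay closer to the median of all genes. Of the lists described here, 0 genes passed the threshold in limma in either direction. The 17 other TOP transcripts, such as those of elongation factors and Tpt1, had a median log2 fold change of 0.06 with 13 above 0. Within this list Eif3f was 0.16 (adjusted p = 0.18, SE 0.06) and Nap1l1 was -0.17 (adjusted p = 0.129, SE 0.05), and these were the 2 genes with an unadjusted p under 0.05. The 79 mitochondrial ribosomal protein genes, which build the separate ribosome of mitochondria, had a median of 0.04 with 54 above 0 (68.4%), and an unadjusted p under 0.05 was found for 3 higher and 1 lower. The 38 initiation factors had a median of 0.02 with 22 above 0, and the 12 elongation and release factors had 0.002 with 6 above 0. The 46 factors that build ribosomes in the nucleolus had -0.01 with 19 above 0, and the 14 genes of the mTOR pathway had -0.01 with 7 above 0. An unadjusted p under 0.05 was found for 1 initiation factor in each direction, for 1 elongation or release factor (lower), for 1 higher and 2 lower biogenesis factors and for 0 genes of the mTOR pathway.

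The kinases named for Rps6 had a median log2 fold change of -0.05, with 2 of 8 above 0. Rps6ka5, a nuclear kinase that ERK activates, had 439 ± 11.7 in the mutant libraries (SD, n = 4) and 532 ± 29.7 in the controls (SD, n = 5), with all mutant libraries below all controls (log2 fold change -0.28, adjusted p = 0.0862, SE 0.08). Rps6ka2, of the RSK family, had 989 ± 19.2 (SD, n = 4) and 1153 ± 95.4 (SD, n = 5), again without overlap (log2 fold change -0.22, adjusted p = 0.143, SE 0.07). Rps6kb1, the S6 kinase downstream of mTOR, had a difference of -0.04 on the log2 scale (adjusted p = 0.849, SE 0.09).

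**Figure D5:**
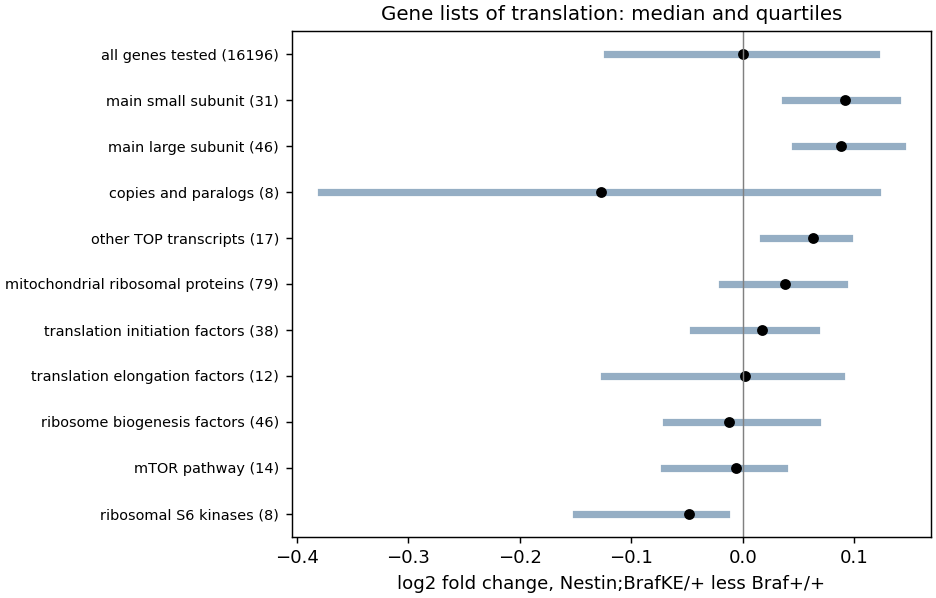
Median log2 fold change of Nestin;BrafKE/+ against Braf+/+ (points) and the quartile range of the genes (bars) for all genes tested and for lists of translation genes, with the number of genes in brackets. Main genes of both ribosomal subunits have medians of 0.09, above mitochondrial ribosomal proteins (0.04), initiation factors (0.02) and ribosome biogenesis factors (-0.01).

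Markers of some cell types also differed between genotypes. The summed signal of 8 oligodendrocyte markers was 126834 to 136901 in Nestin;BrafKE/+ and 92690 to 112210 in Braf+/+, and 4 of the 8 passed the threshold, all higher (Cldn11, Mag, Mobp and Mog). It was lowest in Braf+/+ replicate 1 (92690) and replicate 4 (98191) and highest in Nestin;BrafKE/+ replicate 3 (136901), the same libraries that were lowest and highest for the main ribosomal protein genes. Between these ends the order differed. Braf+/+ replicate 3 had a ribosomal protein share of 1.300%, within the mutant range of 1.265% to 1.350%. Its oligodendrocyte sum, 112210, lay below the mutant range. The astrocyte sum was also highest in Nestin;BrafKE/+ replicate 3 (124777), but it was lowest in Braf+/+ replicate 3 (104157). The sum of 8 astrocyte markers was 110924 to 124777 and 104157 to 117892, and 3 of the 8 passed, all higher (Aldoc, Gfap and S100b). The sum of 8 microglial markers was 7229 to 7983 and 6525 to 7232, and 0 passed. That of 5 blood genes was 3489 to 6184 and 3179.7 to 3579, and that of 8 choroid plexus genes was 4961 to 38889.8 and 14673 to 426334, and 0 of either list passed. Choroid plexus signal was highest in Braf+/+ replicate 2 (426334) and replicate 4 (158184), whose ribosomal protein shares were 1.230% and 1.187%. The 8 neuronal markers summed to 200098 to 224503 and 198778 to 218429, and 0 passed. Among 8 hippocampal markers 2 passed, both higher (Fibcd1 and Wfs1), and among 6 endothelial markers 0 did. Slc17a7 and Gad1 stand in both the neuronal and the hippocampal list. An unadjusted p under 0.05 was found for 3 microglial and 4 blood genes (higher), 3 choroid plexus genes (lower), 1 higher and 3 lower neuronal markers and 0 endothelial ones. No listed marker was at 0. The part of these markers in the ribosomal protein values was not tested.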

How the data were processed

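RNA from the hippocampus was sequenced by the authors with a stranded mRNA kit. Reads were trimmed by TrimGalore, mapped on GRCm39 by STAR and quantified by Salmon, and the authors then adjusted for batches that are not named. The deposited table holds a signal, normalised counts per gene and library as the authors computed them. In every library 100% of the values checked were whole multiples of 1 step (tolerance 0.02). Genes of high mean signal were left out of this check. However, mt-Co1 had 491938 steps, to the nearest whole number, in each of the 9 libraries, so these are not sequenced reads. Depth is unknown, no count model was used, and precision rests on the spread between libraries.

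All 9 libraries were used, grouped by the labels. With limma 3.58.1 (R 4.3.3), genes with a mean of at least 10 were tested on log2(value + 1), with genotype and series as terms and a mean-variance trend, two-sided, adjusted by the Benjamini-Hochberg method over 16196 genes at a threshold of 0.05. Fold changes are on that scale, which understates those of low genes. Members and lists were chosen with earlier results of these data known, so no list was tested. The split into main genes, copies and other names was made after the values were seen. Named genes were the 5 highest and 5 lowest fold changes among members with a mean of at least 50, the 5 of highest mean, paralog pairs, Rps6, Rpsa, Rps27a, the stalk, 5S and reference genes, and those nearest the lower bound. The paralogs Rpl39l and Rpl10l were not analysed here. Some single genes are not reported here. Any others were named after their values were seen. Rps6 had a two-sided exact permutation test of genotype, over all libraries and within series. The fit was tested on simulated data.

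Coordinates and lengths came from Gencode vM39 on GRCm39, in which all 87 genes were found, and starts from RefSeq on GRCm38.p6. Figures were drawn with matplotlib 3.10.9 in Python 3.11.15. Alternatives were pseudocounts of 0.5 and 8, no minimum mean or one of 50, TMM factors, quantile normalisation, other series terms, a replicate block, array quality weights, robust eBayes, other member lists and leaving out libraries.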

Additional observations from a re-analysis of the deposited data

Results flagged for a closer look

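In 70 groups of 4 or 5 libraries, 1 for each named gene and genotype plus the summed level, 4 held a library whose gap to the others passed Dixon's 95% limit, where chance gives about 1 in 20. Rpl11 had a signal of 2362 in Braf+/+ replicate 1, against 2664 to 2785 in the other controls. Rps27 had 1099 in the same library, against 1203 to 1236.5. Rps2 had 6221 in Braf+/+ replicate 3, against 5568 to 5757 in the other controls. Rpl36al had 830.5 in Nestin;BrafKE/+ replicate 4, against 927 to 931 in the other mutant libraries.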

How the results depend on the processing

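No ribosomal protein gene passed the threshold under any alternative that kept the series term. Without that term 12 passed, all higher (among them Rpl18, Rpl23, Rpl28, Rpl31, Rpl36, Rpl38, Rpl41, Rps4l, Rps12 and Rps16; lowest adjusted p = 0.0127), as 2260 of all genes did. With a replicate block in its place 12 passed, all higher (lowest adjusted p = 0.0117), as 1405 of all genes did, and Braf+/+ replicate 5, which has no partner, was absorbed. Correlations of same-numbered libraries were -0.390, -0.078, 0.069 and 0.415, and only number 4 matched itself best, so the samples share only a number. The cause was not tested. The median log2 fold change ran from 0.06 to 0.11 and the genes above 0 from 69 to 79 when 1 library was left out, and the difference in summed share from 0.050 to 0.089 percentage points. Leaving out either library of series C leaves 1, which the series term absorbs. Likewise, without Braf+/+ replicate 4 the term absorbs mutant replicates 2 and 3. Without Nestin;BrafKE/+ replicate 1 it absorbs control replicates 1, 2 and 3. With 4 name prefixes as the term, Braf+/+ replicates 1 and 2 were absorbed, since no mutant library has their prefix. The median was then 0.06, and 9 of the 87 genes had an unadjusted p under 0.05 and were higher. Of all genes, 165 then passed the threshold.

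Some single genes changed sign, none of which had passed the threshold. With name prefixes Rpl22 was -0.037, and with array quality weights Rpl22l1 was 0.00094 and Rps27a 0.0053. Leaving out 1 library gave ranges of -0.020 to 0.062 for Rpl22, -0.23 to 0.032 for Rpl7l1, -0.0075 to 0.068 for Rps27, -0.020 to 0.019 for Rps27a, -0.056 to 0.011 for Rpl9, -0.15 to 0.14 for Rpl22l1, -0.36 to 0.38 for Rpl37rt, -0.010 to 0.065 for Rpl5, -0.055 to 0.24 for Rplp1, -0.011 to 0.20 for Rplp2 and -0.012 to 0.093 for Rpsa.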
